A study of Mus musculus with 12 samples.

Results

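The genes described here are those of cytochrome P450 families 1, 2 and 3 in mouse liver. They were taken as every gene on the array whose design name begins with Cyp1, Cyp2 or Cyp3, then a lower-case letter and a number, and each gene was read from the probe with the highest mean signal over the 4 groups. The rule found 43 genes among the 27962 named on the array, 3 of family 1, 34 of family 2 and 6 of family 3, in 14 subfamilies. Of these, 41 passed the filter on dim probes, and those 41 were well above background on every one of the 12 arrays. The other 2, Cyp2c65 and Cyp2c66, did not pass and were not tested.

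Liver total RNA of male C57BL/6 mice was hybridised to 1-colour arrays, with 3 biological replicates in each of 4 groups. Het mice were heterozygous for Sirt1 by their label (SIRT1+/-), Sirt1 encoding an NAD-dependent deacetylase, and WT mice were SIRT1+/+. The groups were Het and WT mice on high-fat food (HF), and Het and WT mice on low-fat food (LF), kept on it for 34 weeks. The age at the start, the composition of the food and the part of Sirt1 that the allele lacks are not given in the labels, and the allele is not described there as limited to any cell type.

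Cytochrome P450 enzymes hold a haem group, sit mostly in the membrane of the endoplasmic reticulum and receive their electrons from P450 reductase (Por). In liver, families 1, 2 and 3 oxidise drugs, pollutants, steroids, bile acids and fatty acids, and hepatocytes are their main site. Family 1 genes are induced through the dioxin receptor Ahr, Cyp2b genes mainly through Nr1i3 (CAR) and Cyp3a genes mainly through Nr1i2 (PXR), while several mouse members differ between the sexes under the control of growth hormone and Stat5b.

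Between 58.0% and 71.6% of spots were well above background on an array, and no P450 probe was saturated. Levels are intensities divided by the 75th percentile of their own array, so 1 stands for that percentile. A level of one gene is not set against that of another, because probes differ in brightness. Sirt1 itself had levels of 0.607, 0.628 and 0.603 in Het HF livers, against 0.776, 0.835 and 0.890 in WT HF livers, and of 0.774, 0.652 and 0.853 in Het LF livers, against 1.17, 0.966 and 0.940 in WT LF livers. Het livers were below all WT livers of the same food in both cases, a difference of -0.44 ± 0.13 (SE) on the log2 scale on HF and -0.43 ± 0.13 on LF, neither of which passed adjustment over all genes (limma, adjusted p = 0.450 and 0.9999). All HF arrays were scanned on one day and all LF arrays on another, so food and scan day cannot be told apart.

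P450 genes lie in clusters of close relatives, and how far their probes differ can be read from the letters. The following stretches of array probes, as the files list them and read 5′ to 3′, are given because each pair came from close relatives, with capitals on the letters that differ within the pair. Each stretch is the window of 30 letters in which its pair differed most. Cyp3a16 and Cyp3a25 differed at 8 of 30 letters, Cyp2c54 and a second probe of Cyp2c40 at 7 of 30, and Cyp2a4 and Cyp2a5, whose probes overlap on mm7, at 3 of 30. Over the whole length compared, these pairs differed at 8 of 32, 8 of 46 and 3 of 38 letters. Probes of Cyp2j11 and Cyp2j13 differed at 2 of 30, and Cyp2a4 and a second Cyp2a5 probe at 0 of 20.
Cyp3a16: gatGCaGTcaTaactggaGcGtgaTtttcc
Cyp3a25: gatAAaCCcaGaactggaTcAtgaAtttcc
Cyp2c54: ttTattgattaTttcctaattAaaGgaGCC
Cyp2c40, second probe: ttCattgattaCttcctaattCaaAgaCGT
Cyp2a4: aggacacTTCgtagacttgcagaggatatt
Cyp2a5: aggacacAGAgtagacttgcagaggatatt

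By the array's own annotation, 6 members have a probe that lists more than 1 RefSeq gene. The probe of Cyp3a11 also lists Cyp3a41a and Cyp3a44, that of Cyp2b9 also lists Cyp2b10, and that of Cyp2b13 lists both Cyp2b9 and Cyp2b10. The others are Cyp2a4 (with Cyp2a5), Cyp2c40 (with Cyp2c67 and Cyp2c68) and Cyp2d9 (with Cyp2d22 and Cyp2d34). Values of these members are therefore uncertain as values of single genes.

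Promoters of RefSeq (build GRCm38.p6, 250 bases before to 50 after the start) matched 37 of the 43 members, with 40 entries because some genes have more than 1 start. The letters CAAAGTNCA, a form of the element bound by the liver factor HNF4A, were searched on both strands. They stood in 464 of 32851 promoters of all genes (1.41%) and in those of 9 members, Cyp2c37, Cyp2c40, Cyp2c65, Cyp2c70, Cyp2d26, Cyp3a11, Cyp3a16, Cyp3a41 and Cyp3a44. Stretches of 60 bases upstream of the start are given for the 6 of these whose level changed with food, the 4 Cyp3a genes that rose first and the 2 Cyp2c genes that fell after them, with the searched letters in capitals.
Cyp3a11, chr5:145879929-145879988, minus strand: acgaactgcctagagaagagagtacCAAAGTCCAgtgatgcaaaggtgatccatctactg
Cyp3a16, chr5:145469788-145469847, minus strand: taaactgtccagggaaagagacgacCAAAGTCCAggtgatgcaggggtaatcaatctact
Cyp3a41 (current symbol Cyp3a41a), chr5:145720197-145720256, minus strand: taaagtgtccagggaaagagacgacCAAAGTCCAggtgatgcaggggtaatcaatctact
Cyp3a44, chr5:145805935-145805994, minus strand: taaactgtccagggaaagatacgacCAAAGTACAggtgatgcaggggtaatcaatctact
Cyp2c37, chr19:39992336-39992395, plus strand: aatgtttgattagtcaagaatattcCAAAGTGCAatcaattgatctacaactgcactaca
Cyp2c70, chr19:40187316-40187375, minus strand: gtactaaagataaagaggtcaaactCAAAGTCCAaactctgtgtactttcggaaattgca

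The element began 109 bases upstream of the start in Cyp3a11, 99 in Cyp3a16 and 95 in both Cyp3a41 and Cyp3a44, against 63 in Cyp2c37 and 64 in Cyp2c70. It was found in genes that rose, in genes that fell and in Cyp2c40 and Cyp2d26, which passed the test in neither direction. Without gaps, the promoters of Cyp3a16, Cyp3a41 and Cyp3a44 were 92.3% to 94.6% identical to one another and 41.3% to 42.1% identical to that of Cyp3a11. The promoters of Cyp2b9 and Cyp2b13 differed at 2 of 300 bases, while Cyp2b10 was 49.2% identical to Cyp2b9. An inserted or missing letter lowers a value taken without gaps, so the low values do not show promoters to be unrelated. The window that holds 1 of the differing letters is given for that pair, with the letter in capitals.
Cyp2b9, chr7:26173186-26173245, plus strand: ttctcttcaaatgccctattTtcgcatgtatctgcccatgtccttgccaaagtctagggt
Cyp2b13, chr7:26061272-26061331, plus strand: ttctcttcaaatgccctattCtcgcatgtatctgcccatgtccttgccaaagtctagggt

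The letters TTCNNNGAA, the core bound by STAT5, stood in 8.30% of all promoters and in that of 1 member, Cyp2j11. The core letters of the AHR element, GCGTG, stood in 32.4% of all promoters and in those of 6 members, Cyp1a1 and Cyp1b1 of family 1, and Cyp2b10, Cyp2j9, Cyp2j13 and Cyp2r1 of family 2. A match describes these letters in this window only, and its absence says nothing of the factor.

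The first question was which P450 genes differ with food within each genotype. In Het livers 13 of the 41 tested members passed the test, 7 higher and 6 lower on HF (limma, Benjamini-Hochberg adjusted p under 0.05 over 17153 genes), or 31.7%, beside 15.8% of all genes tested (7.54% higher and 8.27% lower). In WT livers 7 of 41 passed, 3 higher and 4 lower, or 17.1%, beside 5.88% of all genes (2.71% higher and 3.17% lower). All 7 were among the 13 and in the same direction, while 718 of the 1009 genes called in WT livers were among the 2713 called in Het livers. The members that rose were Cyp3a and Cyp2b genes and those that fell were Cyp2c genes and Cyp2j9. The median difference over the 41 members was -0.08 in Het livers and -0.01 in WT livers on the log2 scale, against -0.01 and -0.05 over all genes. At an unadjusted p under 0.05 there were 17 members in each genotype, beside 33.1% of all genes in Het livers and 25.8% in WT livers. The 3 HF and 3 LF livers did not overlap for 18 members in Het livers and 21 in WT livers, beside 36.5% and 30.4% of all genes.

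**Figure D1:**
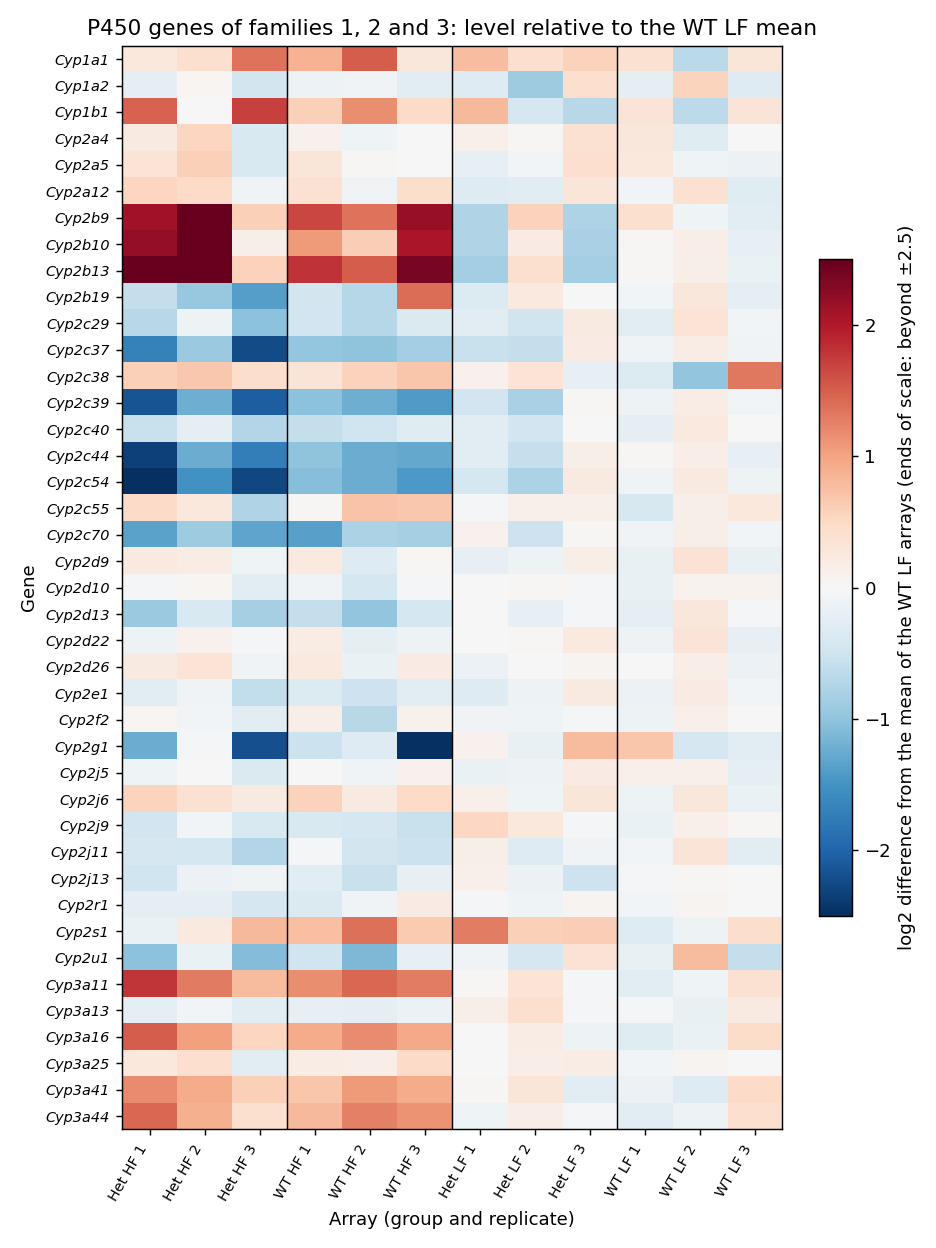
Level of each of the 41 tested P450 genes (rows) on each of the 12 arrays (columns, by group and replicate) as a log2 difference from the mean of the 3 WT LF arrays. Cyp2b9, Cyp2b10, Cyp2b13 and 4 of the 6 Cyp3a genes are red on HF arrays, 5 Cyp2c genes are blue there, and Het HF array 3 is paler than the other HF arrays for the Cyp2b genes.

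Cyp3a enzymes oxidise many drugs and steroids. In Het livers 4 of the 6 Cyp3a genes, all in the cluster on chromosome 5, rose, beside 7.54% of all genes. In WT livers 3 of these rose, beside 2.71% of all genes. Values of each group are given in the order of replicates 1, 2 and 3. Cyp3a11, the main PXR-inducible Cyp3a gene of mouse liver (mm7 chr5:144750340-144752207, probe spanning an intron), had levels of 163, 116 and 81.7 in Het HF livers, against 48.6, 59.7 and 45.5 in Het LF livers. The WT livers had 106, 127 and 115 on HF, against 39.3, 43.9 and 61.4 on LF. Every HF liver was above every LF liver, with a log2 difference of 1.18 ± 0.24 (SE) in Het livers (2.27-fold, limma adjusted p = 0.0122) and 1.29 ± 0.24 in WT livers (2.45-fold, adjusted p = 0.0203).

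Cyp3a16, a fetal and female-biased form in mice (mm7 chr5:144465045-144465104), had levels of 58.0, 41.7 and 29.7 in Het HF livers, against 20.4, 23.3 and 18.7 in Het LF livers. WT levels were 38.5, 45.9 and 39.3 on HF, against 16.6, 18.1 and 28.1 on LF. The 2 foods did not overlap in either genotype, and the difference was 1.01 ± 0.25 in Het livers (limma adjusted p = 0.0245) and 1.02 ± 0.25 in WT livers (adjusted p = 0.0424).

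Cyp3a41, a female-biased form (mm7 chr5:144587472-144587531), had levels of 170, 141 and 112 in Het HF livers, against 76.3, 92.4 and 61.2 in Het LF livers. Levels in WT livers were 121, 156 and 141 on HF, against 67.02, 59.7 and 104 on LF. The difference of 0.88 ± 0.24 passed in Het livers (limma adjusted p = 0.0320), and that of 0.90 ± 0.24 in WT livers did not (adjusted p = 0.0505).

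Cyp3a44, also female-biased (mm7 chr5:144587795-144587854, next to the Cyp3a41 probe), had levels of 104, 71.7 and 50.9 in Het HF livers, against 35.9, 43.4 and 37.6 in Het LF livers. The WT livers had 67.7, 92.0 and 84.2 on HF, against 31.7, 35.4 and 51.3 on LF. The difference was 0.90 ± 0.26 in Het livers (limma adjusted p = 0.0396) and 1.06 ± 0.26 in WT livers (adjusted p = 0.0409). A second, dimmer Cyp3a44 probe differed by 0.41 ± 0.46 and 1.01 ± 0.46 and passed in neither.

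The 4 genes followed one another from array to array. Replicate 1 was the highest and replicate 3 the lowest Het HF liver for each of them, and the highest livers of the other groups were replicate 2 of WT HF, replicate 2 of Het LF and replicate 3 of WT LF each time. The 4 may not be separate measurements, because the Cyp3a11 probe also lists Cyp3a41a and Cyp3a44. The probes of Cyp3a41 and Cyp3a44 also lie next to one another on mm7. Whether these probes read the same transcripts was not tested. The other 2 Cyp3a genes did not pass. Cyp3a25 averaged 59.1 ± 13.8 in Het HF livers against 57.7 ± 3.7 in Het LF livers, and 64.2 ± 7.9 in WT HF livers against 52.8 ± 2.6 in WT LF livers (SD, n = 3 each). Cyp3a13, which lies apart from the cluster on chromosome 5, averaged 19.9 ± 1.7 against 25.9 ± 4.1 in Het livers, and 19.9 ± 0.7 against 23.0 ± 3.3 in WT livers. In Het livers the call of Cyp3a11 was kept with any 1 of the 12 arrays left out, those of Cyp3a16 and Cyp3a41 in 8 of 12 cases and that of Cyp3a44 in 5 of 12. The 3 calls were lost without Het HF replicate 1 (limma adjusted p = 0.0919, 0.123 and 0.140), and also without Het HF replicate 2 or Het LF replicate 1 or 3. That of Cyp3a44 was lost without Het LF replicate 2 or WT HF replicate 2 or 3 as well. In WT livers the calls of Cyp3a16 and Cyp3a44 were kept in 3 of 12 cases (adjusted p up to 0.128 and 0.123) and that of Cyp3a11 in 8 of 12 (up to 0.0673).

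**Figure D2:**
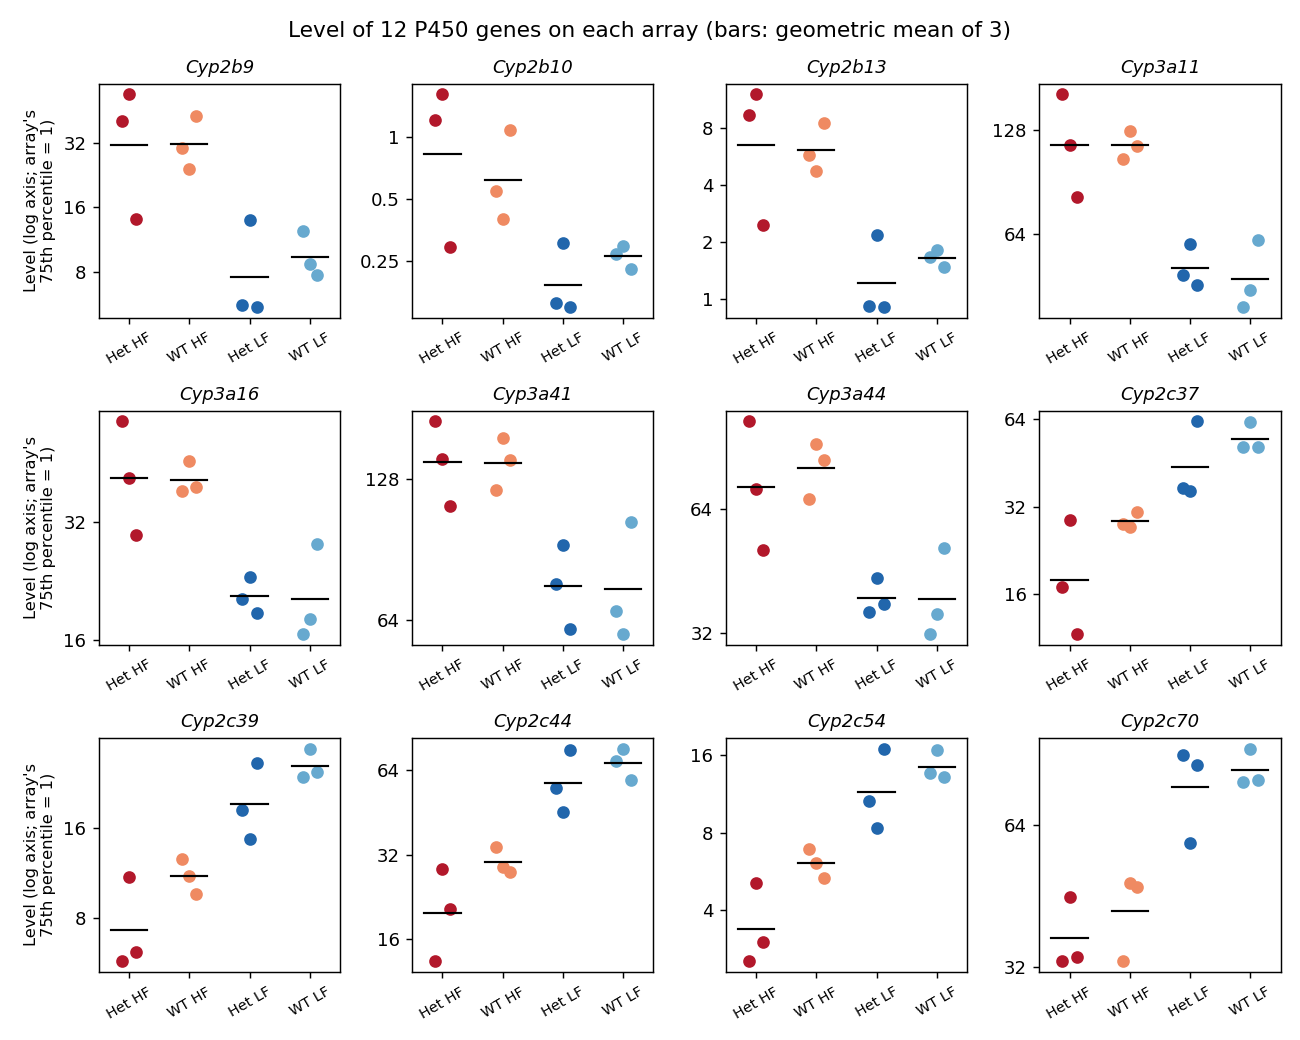
Level of 12 P450 genes on each array (log axis, 75th percentile of the array = 1), with 1 point per liver and the geometric mean of 3 as a bar, by group. Within each genotype, HF livers sit above LF livers for the 4 Cyp3a genes and mostly for the 3 Cyp2b genes, with Het HF replicate 3 low at 14.2 for Cyp2b9, and below LF livers for the 5 Cyp2c genes.

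Cyp2b enzymes metabolise drugs, steroids and fatty acids. In Het livers 3 of the 4 Cyp2b genes, in the cluster on chromosome 7, rose, beside 7.54% of all genes. Cyp2b9, a female-biased form (mm7 chr7:23107426-23107485), had levels of 40.3, 53.8 and 14.2 in Het HF livers, against 5.63, 14.0 and 5.496 in Het LF livers. WT levels were 30.1, 24.2 and 42.7 on HF, against 12.4, 8.71 and 7.73 on LF. Het HF replicate 3 stood barely above the highest Het LF liver, whereas the WT groups were well apart. The log2 difference was 2.05 ± 0.49 in Het livers (4.14-fold, limma adjusted p = 0.0219) and 1.74 ± 0.49 in WT livers, where it did not pass (adjusted p = 0.0614).

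Cyp2b13, also female-biased (mm7 chr7:22986378-22992433, probe spanning an intron), had levels of 9.36, 12.1 and 2.46 in Het HF livers, against 0.918, 2.17 and 0.910 in Het LF livers. Levels in WT livers were 5.75, 4.72 and 8.54 on HF, against 1.68, 1.82 and 1.47 on LF. The difference was 2.42 ± 0.53 in Het livers (5.35-fold, limma adjusted p = 0.0160) and 1.90 ± 0.53 in WT livers (adjusted p = 0.0603).

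Cyp2b10, the classical target of CAR (mm7 chr7:22691430-22700100, probe spanning introns), had levels of 1.21, 1.61 and 0.293 in Het HF livers, against 0.157, 0.305 and 0.150 in Het LF livers. The WT livers had 0.549, 0.402 and 1.08 on HF, against 0.270, 0.297 and 0.230 on LF. The Het groups overlapped through HF replicate 3 and LF replicate 2, while the WT groups did not. The difference was 2.10 ± 0.58 in Het livers (4.30-fold, limma adjusted p = 0.0344) and 1.23 ± 0.58 in WT livers (adjusted p = 0.207).

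Het HF replicate 2 was the highest and replicate 3 the lowest liver of its group for all 3 genes, and replicate 2 the highest of the Het LF group. The 3 may not be separate measurements, because the Cyp2b13 probe also lists Cyp2b9 and Cyp2b10, and the Cyp2b9 probe also lists Cyp2b10. Without Het HF replicate 3 the differences in Het livers were 2.62 for Cyp2b9, 2.86 for Cyp2b10 and 3.12 for Cyp2b13. Without Het HF replicate 1 they were 1.87, 1.83 and 2.16, and the 3 calls were lost (limma adjusted p = 0.0861, 0.127 and 0.0699). They were also lost without Het LF replicate 1 or 3, and those of Cyp2b9 and Cyp2b10 without Het HF replicate 2, so that 8 of 12 cases kept these and 9 of 12 kept Cyp2b13. In a fit of every probe, the second probes of Cyp2b9 and Cyp2b13 differed by 2.26 ± 0.48 and 3.06 ± 0.64 in Het livers, and that of Cyp2b9 also passed in WT livers (1.95 ± 0.48, limma adjusted p = 0.0424). The second probe of Cyp2b10 differed by 2.82 ± 0.78 in Het livers and by -0.20 ± 0.78 in WT livers, against 1.23 for the first. Cyp2b19, known for its expression in skin, was a dim member that did not pass (-0.95 ± 0.46 in Het livers and 0.08 ± 0.46 in WT livers).

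Cyp2c enzymes act on drugs and on arachidonic and linoleic acid. Among 9 tested Cyp2c genes 5 fell on HF in Het livers and 4 of these in WT livers, with none higher. The shares of all genes lower were 8.27% in Het livers and 3.17% in WT livers. Cyp2c54 (mm7 chr19:39941403-39963984, probe spanning introns) had levels of 2.52, 5.08 and 2.9999 in Het HF livers, against 10.6, 8.36 and 17.0 in Het LF livers. WT levels were 6.93, 6.09 and 5.34 on HF, against 13.7, 16.9 and 13.2 on LF. No HF liver reached an LF liver of its genotype, and the difference was -1.77 ± 0.29 in Het livers (3.40-fold lower, limma adjusted p = 0.00582) and -1.25 ± 0.29 in WT livers (2.38-fold lower, adjusted p = 0.0369).

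Cyp2c44, an arachidonic acid epoxygenase now named Cyp2c23 (mm7 chr19:43898918-43898977), had levels of 13.4, 28.6 and 20.6 in Het HF livers, against 55.5, 45.6 and 75.2 in Het LF livers. Levels in WT livers were 34.0, 28.9 and 27.8 on HF, against 69.3, 76.4 and 59.2 on LF. The difference was -1.53 ± 0.26 in Het livers (2.89-fold lower, limma adjusted p = 0.00643) and -1.17 ± 0.26 in WT livers (2.25-fold lower, adjusted p = 0.0325), with no overlap in either.

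Cyp2c39, described as a retinoic acid hydroxylase (mm7 chr19:39461852-39461911), had levels of 5.76, 11.0 and 6.17 in Het HF livers, against 18.3, 14.7 and 26.2 in Het LF livers. The WT livers had 12.6, 11.1 and 9.62 on HF, against 23.6, 29.3 and 24.4 on LF. The foods did not overlap, and the difference was -1.39 ± 0.26 in Het livers (limma adjusted p = 0.00910) and -1.22 ± 0.26 in WT livers (adjusted p = 0.0306).

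Cyp2c70, which hydroxylates bile acids to the muricholic acids of mice (mm7 chr19:40047253-40047312), had levels of 32.9, 45.03 and 33.5 in Het HF livers, against 90.2, 58.7 and 85.6 in Het LF livers. WT levels were 32.8, 48.0 and 47.2 on HF, against 79.1, 92.9 and 79.6 on LF. Again no HF liver reached an LF liver, and the difference was -1.06 ± 0.21 in Het livers (limma adjusted p = 0.0102) and -0.99 ± 0.21 in WT livers (adjusted p = 0.0282).

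Cyp2c37 (mm7 chr19:39905751-39905810) had levels of 17.0, 28.9 and 11.7 in Het HF livers, against 37.3, 36.2 and 63.0 in Het LF livers. Levels in WT livers were 28.0, 27.2 and 30.7 on HF, against 51.6, 62.5 and 51.4 on LF. The groups did not overlap in either genotype, but only the difference of -1.30 ± 0.30 in Het livers passed (limma adjusted p = 0.0191), not that of -0.94 ± 0.30 in WT livers (adjusted p = 0.0855). Its second probe differed by -0.84 ± 0.36 and -0.59 ± 0.36 and passed in neither.

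The array-to-array order was shared here as well. Replicate 2 of Het HF and replicate 2 of WT LF were the highest livers of their groups for all 5 genes, and replicate 3 of Het LF for all but Cyp2c70. In Het livers the calls of Cyp2c39, Cyp2c44, Cyp2c54 and Cyp2c70 were kept with any 1 of the 12 arrays left out, and that of Cyp2c37 was lost without Het HF replicate 1 or Het LF replicate 3 (limma adjusted p = 0.0706 and 0.0581). In WT livers, leaving out any 1 of WT HF replicates 1, 2 and 3 or WT LF replicate 1 left 0 P450 genes called, and leaving out WT LF replicate 2 or Het LF replicate 1 left 1 and 4, while 10 were called without Het HF replicate 3. Without WT LF replicate 3 all 4 Cyp2c calls in WT livers were lost and 5 genes were called, all of them higher on HF.

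The other 4 tested Cyp2c genes did not pass. Cyp2c29, a CAR-inducible epoxygenase and neighbour of Cyp2c39, averaged 62.8 ± 19.8 in Het HF livers against 83.5 ± 22.1 in Het LF livers, and 65.4 ± 7.7 in WT HF livers against 94.5 ± 21.2 in WT LF livers (SD, n = 3 each). Cyp2c40, which makes a hydroxylated arachidonic acid, averaged 71.3 ± 13.1 against 84.8 ± 13.8 in Het livers, and 72.2 ± 7.4 against 100.5 ± 16.6 in WT livers. Its second probe, which resembles that of Cyp2c54 in the stretch shown above, fell by 0.64 in Het livers and by 0.70 in WT livers on the log2 scale (SE 0.17 each, limma adjusted p = 0.0288 and 0.0392). Cyp2c38 and Cyp2c55, both dim, differed by 0.48 ± 0.45 and -0.08 ± 0.31 in Het livers, and by 0.54 ± 0.45 and 0.47 ± 0.31 in WT livers.

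**Figure D3:**
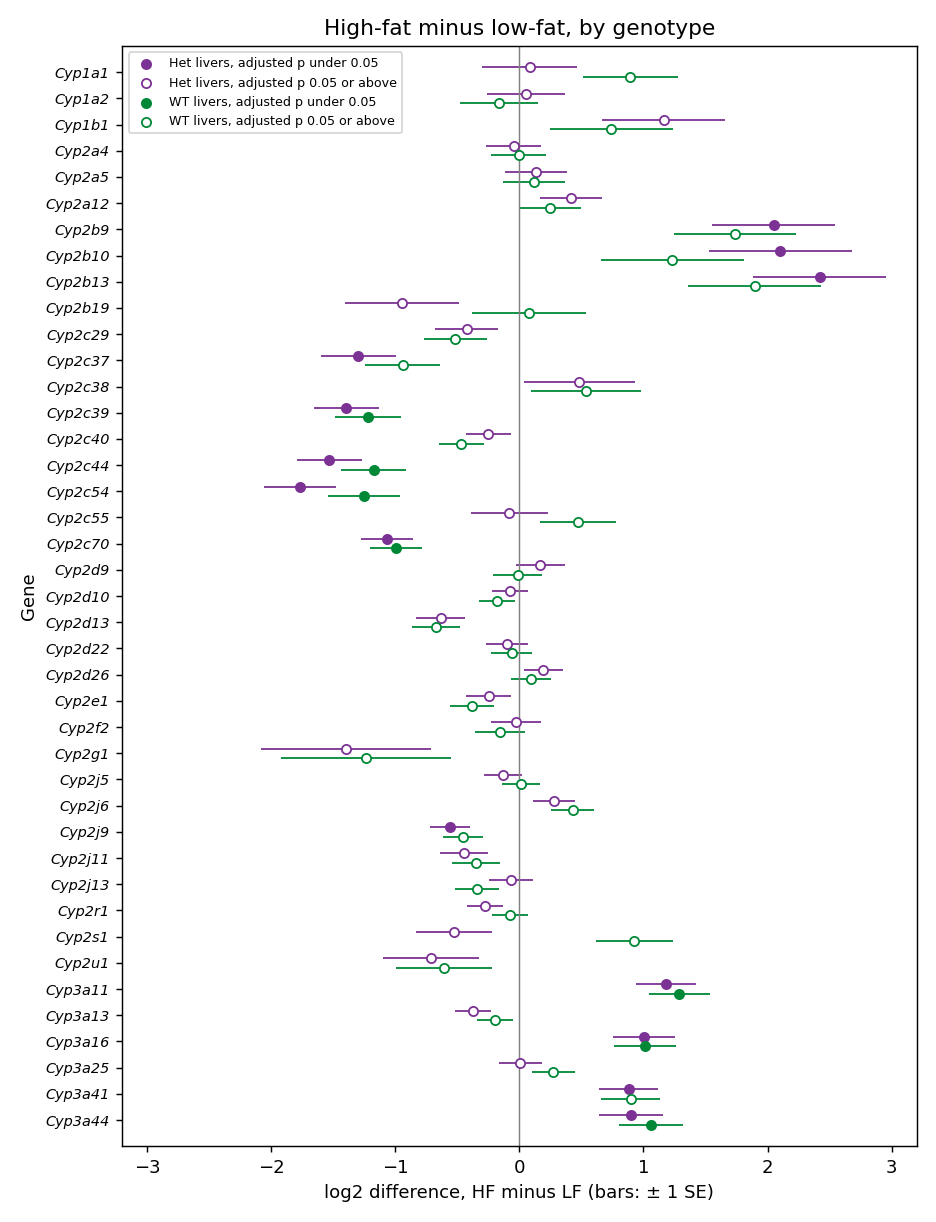
Difference between HF and LF livers of the 41 tested P450 genes (log2, bars ± 1 SE), in Het and in WT livers, with filled points where the limma adjusted p was under 0.05. The filled points are 13 in Het livers and 7 in WT livers, to the right for Cyp3a and Cyp2b genes and to the left for Cyp2c genes and Cyp2j9.

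Cyp2j enzymes are epoxygenases of polyunsaturated fatty acids. In Het livers 1 of the 5 fell, beside 8.27% of all genes, and none passed in WT livers, beside 5.88% called. A count of 1 is no result about the subfamily. Cyp2j9 (mm7 chr4:95961197-95961256) had levels of 1.67, 2.21 and 1.80 in Het HF livers, against 3.34, 2.80 and 2.26 in Het LF livers. The WT livers had 1.78, 1.74 and 1.58 on HF, against 2.08, 2.55 and 2.38 on LF. All HF livers were below all LF livers of their genotype, although in Het livers by little, and the difference was -0.56 ± 0.16 in Het livers (limma adjusted p = 0.0432) and -0.45 ± 0.16 in WT livers (adjusted p = 0.116). The call was kept in 4 of 12 cases with 1 array left out, with an adjusted p of up to 0.152, without Het HF replicate 1. Cyp2j5, the most studied hepatic member, averaged 70.9 ± 8.4 in Het HF livers against 77.9 ± 11.4 in Het LF livers, and 79.7 ± 5.7 in WT HF livers against 79.5 ± 11.2 in WT LF livers (SD, n = 3 each). Cyp2j6 averaged 7.14 ± 0.87 against 5.90 ± 0.85 in Het livers, and 7.34 ± 0.89 against 5.48 ± 0.997 in WT livers, and it passed in neither.

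Many P450 genes that characterise the liver passed in neither genotype. Cyp2e1, which oxidises ethanol and acetone, averaged 182 ± 33 in Het HF livers against 216 ± 42 in Het LF livers, and 173 ± 15 in WT HF livers against 227 ± 31 in WT LF livers (SD, n = 3 each). Cyp1a2, which oxidises caffeine and aromatic amines, averaged 17.0 ± 2.9 against 17.3 ± 7.9 in Het livers, and 17.4 ± 1.3 against 20.3 ± 7.4 in WT livers. Cyp2f2, which activates naphthalene, averaged 188 ± 20 against 190 ± 5 in Het livers, and 186 ± 54 against 201 ± 17 in WT livers. HF and LF livers overlapped for these genes, except for Cyp2e1 in WT livers, where all HF livers were lower, by -0.38 ± 0.18 (limma adjusted p = 0.208).

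The 5 Cyp2d genes, relatives of the human drug-metabolising CYP2D6, and the 3 Cyp2a genes did not pass. The shares of all genes called were 15.8% in Het livers and 5.88% in WT livers. Cyp2d9, a male-biased steroid hydroxylase, differed by 0.17 ± 0.20 in Het livers and by -0.01 ± 0.20 in WT livers. Cyp2d10 differed by -0.08 ± 0.14 and -0.18 ± 0.14, Cyp2d22 by -0.10 ± 0.17 and -0.06 ± 0.17, and Cyp2d26 by 0.19 ± 0.16 and 0.09 ± 0.16. Cyp2d13 came close to passing, with levels of 2.59, 3.75 and 2.74 in Het HF livers against 4.93, 4.25 and 4.74 in Het LF livers, and 3.23, 2.48 and 3.64 in WT HF livers against 4.14, 5.95 and 4.80 in WT LF livers. Its HF livers were all below its LF livers (-0.63 ± 0.20 in Het and -0.67 ± 0.20 in WT livers, limma adjusted p = 0.0503 and 0.0652). Cyp2a5, a coumarin hydroxylase, differed by 0.14 ± 0.25 and 0.12 ± 0.25, its near-copy Cyp2a4, a female-biased steroid hydroxylase, by -0.05 ± 0.22 and -0.01 ± 0.22, and Cyp2a12 by 0.41 ± 0.25 and 0.25 ± 0.25.

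Of the genes inducible by Ahr, Cyp1a1 had levels of 0.168, 0.185 and 0.358 in Het HF livers, against 0.240, 0.186 and 0.209 in Het LF livers. WT levels were 0.257, 0.402 and 0.171 on HF, against 0.182, 0.0877 and 0.172 on LF. The groups overlapped in both genotypes, and neither difference passed (0.08 ± 0.38 and 0.89 ± 0.38, limma adjusted p = 0.904 and 0.171). Cyp1b1, mostly expressed outside hepatocytes, differed by 1.16 ± 0.50 in Het livers and 0.74 ± 0.50 in WT livers (adjusted p = 0.130 and 0.368). Among the remaining members, Cyp2g1, known from olfactory tissue, differed by -1.39 ± 0.68 and -1.24 ± 0.68. Cyp2r1, a vitamin D 25-hydroxylase, differed by -0.27 ± 0.14 and -0.07 ± 0.14, and Cyp2u1, which hydroxylates long-chain fatty acids, by -0.71 ± 0.38 and -0.61 ± 0.38. Cyp2j11 and Cyp2j13 differed by -0.45 and -0.07 in Het livers and by -0.35 and -0.34 in WT livers, and passed in neither.

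Members can also be grouped by what is known of their regulation, in lists chosen with earlier results of these data known. Of 8 tested members with a known female bias 5 rose in Het livers (Cyp2b9, Cyp2b13, Cyp3a16, Cyp3a41 and Cyp3a44) and 2 in WT livers (Cyp3a16 and Cyp3a44), with none lower, beside 7.54% of all genes higher in Het livers and 2.71% in WT livers. The median difference of the 8 was 0.89 in Het livers and 0.96 in WT livers on the log2 scale, against -0.01 and -0.05 over all genes. The 5 that rose may not be separate measurements. The Cyp2b13 probe also lists Cyp2b9, and the Cyp3a41 and Cyp3a44 probes lie next to one another on mm7. Cyp2a4, Cyp2c40 and Cyp2g1 of that list passed in neither. None of the 4 members with a known male bias (Cyp2d9, Cyp2d10, Cyp2f2 and Cyp2u1) and none of the 3 inducible by Ahr passed in either, beside 15.8% of all genes in Het livers and 5.88% in WT livers. Of 6 inducible by CAR or PXR, Cyp2b10 and Cyp3a11 rose and Cyp2c37 fell in Het livers, and Cyp3a11 rose in WT livers, beside the same shares of all genes, while Cyp2c29, Cyp2c55 and Cyp3a13 passed in neither.

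The second question was whether the genotypes differ. No P450 gene passed for Het against WT on HF, on LF or over both foods, and none for the interaction of genotype and food, as no gene of the 17153 did in any of these 4 comparisons with limma (0% called). At an unadjusted p under 0.05 there were 5 members on HF, beside 8.63% of all genes, 1 on LF (2.01%), 4 over both foods (4.82%) and 1 for the interaction (4.84%). The 5 on HF were Cyp2b19 and 4 Cyp2c genes, all lower in Het livers. This comparison and that of food in Het livers share the 3 Het HF arrays, so they are not independent, and the values of each are given on their own.

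Cyp2c54, whose levels on HF were 2.52, 5.08 and 2.9999 in Het livers against 6.93, 6.09 and 5.34 in WT livers, had the lowest p on HF. All Het HF livers were below all WT HF livers, as for no other member and beside 14.9% of all genes, by -0.85 ± 0.29 on the log2 scale (limma adjusted p = 0.465). The differences on HF were -0.68 ± 0.30 for Cyp2c37, -0.60 ± 0.26 for Cyp2c44 and -0.59 ± 0.26 for Cyp2c39 (limma adjusted p = 0.568 to 0.569), and each of these had overlapping groups. On LF the same 4 differed by -0.33, -0.32, -0.24 and -0.42 in the order Cyp2c54, Cyp2c37, Cyp2c44 and Cyp2c39. One slide held all 3 Het HF arrays and 1 WT HF array, and within it the differences were -0.66 for Cyp2c54, -0.78 for Cyp2c37, -0.48 for Cyp2c44 and -0.40 for Cyp2c39. With the slide as a block these were the values of the fit, with SE of 0.40 to 0.45 that take the 1 WT array to vary as the others (limma adjusted p = 0.966 to 0.980). Cyp2b19, the fifth, differed by -1.05 ± 0.46 and rests on WT HF replicate 3, at a level of 0.154 against 0.0423 and 0.0352 in the other WT HF livers.

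**Figure D4:**
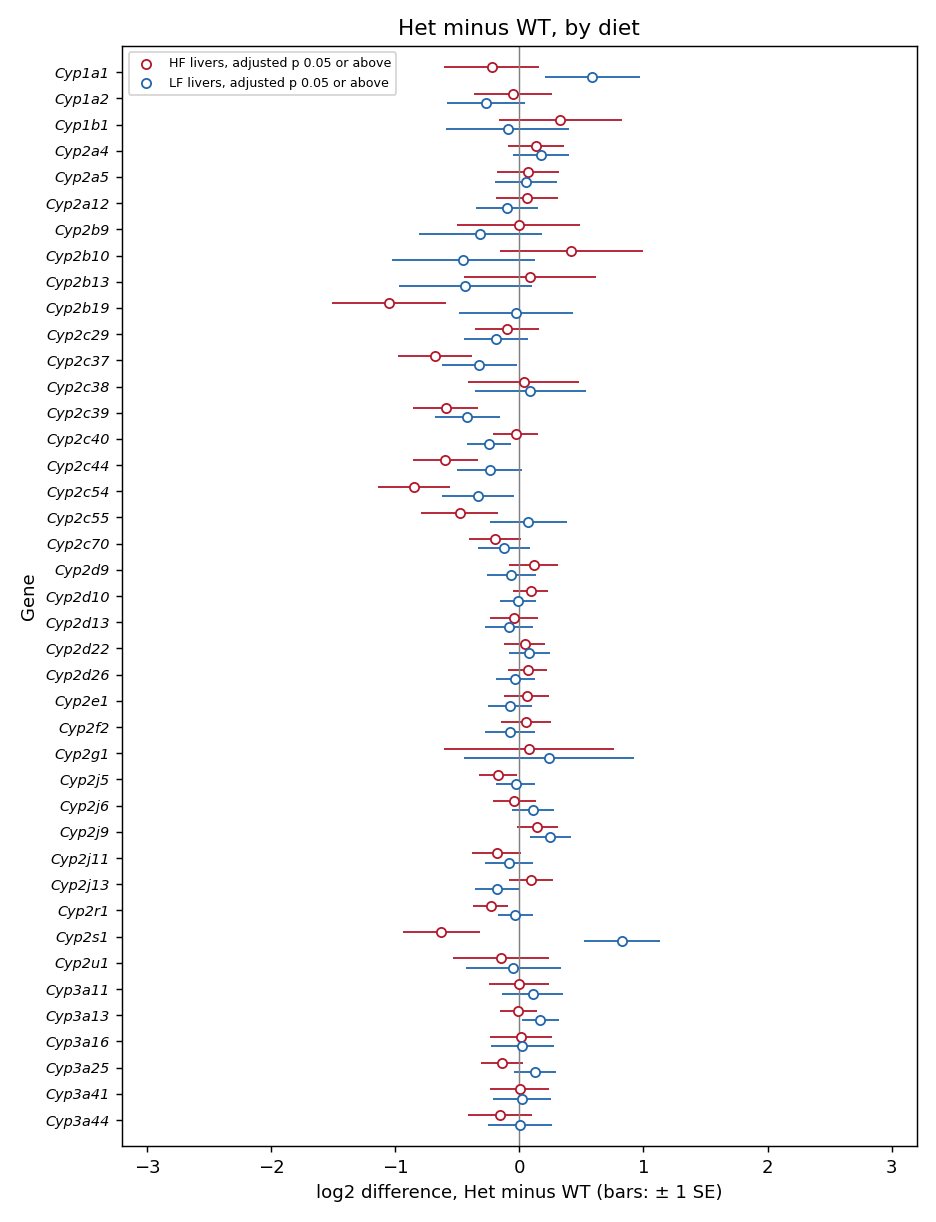
Difference between Het and WT livers of the 41 tested P450 genes (log2, bars ± 1 SE) on HF and on LF. All points are open because no gene reached an adjusted p under 0.05, 8 of the 9 Cyp2c genes lie to the left of 0 on HF, and Cyp2s1 lies on opposite sides on the 2 foods.

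The 3 Cyp2b genes that rose with food and the Cyp3a genes had overlapping genotypes on HF. Het livers there differed from WT livers by -0.01 ± 0.49 for Cyp2b9, 0.09 ± 0.53 for Cyp2b13 and 0.42 ± 0.58 for Cyp2b10. On LF these genes differed by -0.32, -0.44 and -0.45 in that order. In a fit of every probe, the second Cyp2b10 probe differed by 0.46 ± 0.78 on HF and -2.56 ± 0.78 on LF and passed in neither. The Cyp2b10 value on LF thus depends on the probe. The 6 Cyp3a genes differed by -0.15 to 0.02 on HF and by 0.01 to 0.17 on LF. Without Het HF replicate 3 the Cyp2b10 difference on HF was 1.17 ± 0.41, which did not pass either (limma adjusted p = 0.390).

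Cyp2s1, an extrahepatic form inducible by dioxin, was the 1 member with an unadjusted p under 0.05 for the interaction. Its levels were 0.139, 0.182 and 0.273 in Het HF livers, against 0.374, 0.234 and 0.236 in Het LF livers. Levels in WT livers were 0.261, 0.401 and 0.244 on HF, against 0.124, 0.142 and 0.211 on LF. HF was above LF without overlap in WT livers, and the groups overlapped in Het livers. The difference with food was -0.53 ± 0.31 in Het livers and 0.93 ± 0.31 in WT livers, and the interaction was -1.45 ± 0.44 (limma adjusted p = 0.946), or -1.63 ± 0.58 with the slide as a block. On LF the 3 Het livers were above the 3 WT livers for Cyp2s1 and for Cyp1a1 (0.83 ± 0.31 and 0.59 ± 0.38), the 2 members whose genotypes did not overlap on LF, beside 4.34% of all genes.

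Genes that control or serve these enzymes were counted in lists, likewise chosen with earlier results known. Of 17 tested xenobiotic receptors and their partners 3 fell in Het livers and none passed in WT livers, beside 8.27% of all genes lower and 15.8% called in Het livers and 5.88% called in WT livers. That is close to the share of all genes, and the list's median difference was -0.07 in Het livers and -0.21 in WT livers, so the genes below are given for their roles and not as a result about the list. Hnf4a, the liver factor whose element was searched in the promoters, had levels of 8.63, 10.1 and 10.8 in Het HF livers, against 16.2, 14.8 and 21.8 in Het LF livers, and WT livers had 11.1, 12.1 and 12.1 on HF, against 13.1, 17.3 and 17.5 on LF. It was lower on HF without overlap in both genotypes, by -0.82 ± 0.17 in Het livers (limma adjusted p = 0.0127) and by -0.43 ± 0.17 in WT livers, where it did not pass (adjusted p = 0.151). Arnt, the partner of Ahr, fell by 0.95 and Rxra, the partner of CAR and PXR, by 0.67 in Het livers (limma adjusted p = 0.0191 and 0.0204).

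The receptors themselves did not pass. Ahr differed by 0.10 ± 0.22 in Het livers and -0.05 ± 0.22 in WT livers, Nr1i2 by 0.27 ± 0.18 and 0.18 ± 0.18, and Nr1i3 by -0.16 ± 0.23 and -0.12 ± 0.23. None of the 7 electron donors passed, beside those shares of all genes, with Por at -0.07 ± 0.26 and -0.43 ± 0.26. Of 12 genes of haem supply and breakdown 1 fell in Het livers, beside 8.27% of all genes, and none passed in WT livers. That is near the share of all genes, so the count is no result about the list. The 1 was Fech, which inserts the iron of haem (-0.41 ± 0.12, limma adjusted p = 0.0406). Alas1, the first enzyme of the pathway, differed by 0.48 ± 0.49 in Het livers and -0.17 ± 0.49 in WT livers. No gene of these 3 lists passed for genotype.

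Of 12 tested regulators of sex-biased genes 3 fell in Het livers, beside 8.27% of all genes lower and 15.8% called, and in WT livers 1 rose and 1 fell, beside 5.88% called. The list's median difference was -0.37 in Het livers and -0.20 in WT livers. Cish, an inhibitor of cytokine signalling that STAT5 induces, had levels of 0.980, 0.802 and 1.09 in Het HF livers, against 5.03, 7.97 and 9.82 in Het LF livers, and WT livers had 2.90, 2.06 and 2.06 on HF, against 4.39, 4.90 and 5.36 on LF. The groups were far apart, at -2.95 ± 0.24 in Het livers (limma adjusted p = 0.00106) and -1.08 ± 0.24 in WT livers (adjusted p = 0.0317). Stat5b fell by 0.51 and Foxa1 by 1.21 in Het livers (limma adjusted p = 0.0304 and 0.0256), and Stat5a rose by 0.94 in WT livers (adjusted p = 0.0245).

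In bulk tissue, fewer cells of a type and less RNA per cell cannot be told apart, and some markers of other cells differed with food. Counts by the test in these lists stand beside 15.8% of all genes called in Het livers and 5.88% in WT livers. A count of 1 in so short a list is no result about the list. The summed level of 7 stellate cell markers was 27.2 to 47.1 in Het HF livers and 30.4 to 32.5 in WT HF livers, against 18.03 to 23.5 in Het LF livers and 16.8 to 18.6 in WT LF livers, with 4 of the 7 higher in Het livers and 3 in WT livers by the test. The sum of 5 cholangiocyte markers was 13.0 to 68.6 in Het HF livers and 19.8 to 24.1 in WT HF livers, against 7.09 to 9.51 in Het LF livers and 6.65 to 9.22 in WT LF livers. By the test 1 of the 5 was higher in Het livers and none passed in WT livers. Spp1 made up most of this sum, at 66.6, 12.2 and 34.5 in Het HF livers. Krt7 overlapped in Het livers, at 0.703, 0.204 and 0.482 on HF against 0.371, 0.309 and 0.236 on LF. In WT livers it did not, at 0.369, 0.525 and 0.327 on HF against 0.174, 0.209 and 0.288 on LF. The differences of all 5 cholangiocyte markers were above 0 in both genotypes. The sum of 6 hepatocyte markers overlapped between all groups, at 720 to 1100 in Het HF, 724 to 943 in WT HF, 700 to 919 in Het LF and 754 to 1054 in WT LF livers, all 6 being well above background in every group. Alb was the largest part of this sum, so the sum says little of the others. Its levels were 732, 654 and 434 in Het HF livers, against 350, 322 and 469 in Het LF livers. HF and LF livers overlapped for Alb in both genotypes. By the test 3 of the 6 markers were lower on HF in Het livers and 1 in WT livers. The endothelial sum (5 markers) was 22.5 to 28.7 in Het HF livers against 27.3 to 29.6 in Het LF livers. It was 24.0 to 27.6 in WT HF livers against 29.8 to 32.4 in WT LF livers, lower on HF without overlap. Clec4g made up most of this sum, at 14.4, 18.5 and 11.9 in Het HF livers, and the markers did not all move that way. By the test 1 of the 5 was higher and 1 lower in WT livers, and 1 was lower in Het livers. Lyve1 had levels of 2.16, 3.04 and 2.56 in WT HF livers, against 1.23, 0.760 and 1.36 in WT LF livers. The lymphocyte sum (6 markers, 1 of them well above background on no WT HF array) was 0.765 to 1.05 in Het HF livers against 0.766 to 1.09 in Het LF livers. In WT livers it was 0.694 to 0.848 on HF against 0.965 to 1.86 on LF, again lower without overlap. Of the 5 tested lymphocyte markers 1 was lower in Het livers and none passed in WT livers. The Kupffer cell and macrophage sum (7 markers) overlapped, at 69.6 to 107 in Het HF livers against 57.2 to 120 in Het LF livers, and 87.0 to 99.1 in WT HF livers against 81.4 to 107 in WT LF livers. Lyz2 made up most of this sum, at 63.7, 55.7 and 50.3 in Het HF livers, so the sum says little of the others. By the test 1 of the 7 was higher and 1 lower in Het livers, and none passed in WT livers. Single markers differed by -2.87 to 0.76 on the log2 scale in Het livers. The part of these cells in the P450 differences was not tested.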

How the data were processed

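Liver RNA of 12 mice was labelled with Cy3 and hybridised to Agilent arrays of 60-base probes, 1 array a mouse. Scans were read with Feature Extraction 9.5, per the submitters' processing notes. The deposited files give 1 processed intensity a spot, with background already subtracted per the file headers, and 0 or 1 flags (deposited, of no unit) that mark a spot as well above background, saturated or an outlier. The headers name no step that puts arrays on a common scale, and the series' own deposited value table repeated these intensities.

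Control spots and 1344 outlier spots were left out. Intensities were taken as log2, the log2 of the 75th percentile of each array was subtracted, and spots of a probe were averaged (41174 probes). A gene, by the name of the array design, was read from its probe with the highest mean and tested where every array of some group showed that probe well above background and each group kept 2 or more usable values (17153 genes). All 12 arrays entered 1 fit of 4 group means with limma 3.58.1 in R 4.3.3 (two-sided, Benjamini-Hochberg over all genes tested, threshold 0.05), with 6 comparisons. SE is from that fit. Nothing in the labels says which mice shared a litter or cage. Array coordinates are mm7, per the file headers. Precision is limited by how few arrays there are. The scripts were tested on simulated data.

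Genes were named by rule: every member called in any comparison, and a set list of further members and regulators whatever their result. Cyp2b19, Cyp2d13, Cyp2j11 and Cyp2j13 are outside that rule and were chosen after their values were seen. The members, the lists and the promoter elements were chosen with earlier results of these data known. Alternatives covered normalization, background, the dim filter, the probe rule, the samples in the fit, the variance model, the slide, the replicate number and each array left out.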

Additional observations from a re-analysis of the deposited data

How the results depend on the processing

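No direction of a called P450 gene reversed under any alternative run. Counts here are P450 members called. For food in Het livers (13 members), 7 were called with no filter on dim probes and 5 with only the groups compared in the fit, and 5 to 14 when 1 array was left out, the fewest without Het HF replicate 1, with 6 without Het LF replicate 1 or 3. For food in WT livers (7 members), 0 were called with no filter on dim probes and 16 with the slide as a random block, whose estimated correlation was -0.18, and 0 to 10 when 1 array was left out, the most without Het HF replicate 3. The 13 calls in Het livers were kept in 120 of 156 values with an array left out and 108 of 130 others, and the 7 in WT livers in 37 of 84 and 54 of 70. Cyp2c39, Cyp2c44, Cyp2c54, Cyp2c70 and Cyp3a11 in Het livers were kept in all. The cause was not tested, except that an array less leaves fewer samples and no filter adds genes to the adjustment. Scaling to the median turned the share of called genes that were higher in WT HF livers to 74.3%, and quantile normalization to 59.1%, against 46.1% with the 75th percentile. The median of all genes there was 0.07 with median scaling, against -0.05. The P450 counts were then 10 (6 higher) and 7 of 41. The genotype and interaction counts were 0 under every alternative that gave a value. The slide as a fixed block could not be fitted for food, because each slide held 1 food, the slide as a random block was run for food alone, and a fit of only the groups compared does not exist for comparisons that use all 4. Signal over background limits the dim members, of which 2 were not tested.

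The replicate number as a block gave 9 members for food in Het livers and 1 in WT livers. Over 18 pairs of same-numbered arrays the correlation of deviations ran from -0.47 to 0.46, with 3 over 0.1, so the numbers name arrays and do not pair them.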

Other observations

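Several P450 genes differ between the centre and the edge of the liver lobule, and other zoned genes were counted for that reason. Of 12 genes known to be highest around the central vein and outside the P450 family, 1 rose on HF in Het livers and none passed in WT livers, beside 15.8% and 5.88% of all genes called. The 1 was Glul, glutamine synthetase (0.59 ± 0.12, limma adjusted p = 0.0105). Of 12 genes known to be highest around the portal vein, Hsd17b13, a lipid droplet protein, rose and Cps1, the first enzyme of the urea cycle, fell in both genotypes, beside the same shares. Both lists are near the share of all genes in Het livers, so the counts are no result about zoned genes. Hsd17b13 differed by 0.49 ± 0.15 in Het livers and 0.72 ± 0.15 in WT livers, and Cps1 by -0.94 ± 0.16 and -1.12 ± 0.16 (limma adjusted p = 0.0455 and 0.0245 for Hsd17b13, 0.00611 and 0.0105 for Cps1). The pericentral Cyp2e1 and Cyp1a2 and the periportal Cyp2f2 passed in neither.

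Of 6 listed Ahr targets outside the P450 family only 3 were tested, and 1 of these rose in both genotypes. The shares of all genes higher were 7.54% in Het livers and 2.71% in WT livers, and a count of 1 is no result about Ahr targets. The 1 was Nqo1, a quinone reductase also under Nfe2l2. It rose by 0.98 ± 0.27 in Het livers and 1.03 ± 0.27 in WT livers (limma adjusted p = 0.0335 and 0.0492). Of 15 members with more than 1 tested probe, the probes had the same sign in 10 for food in Het livers and in 11 in WT livers. By current symbols, 3 further P450 genes on the array, Cyp2ab1, Cyp2d12 and Cyp2d34, carried other design names and were not part of the 43.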
